A study of Mus musculus with 121 samples.

Results

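Gene expression in the prefrontal cortex of male mice carrying 1 conditional GDNF allele was compared with that of wild-type controls, in a cross in which Nestin-Cre recombines the allele. The comparison used the raw counts of 6 libraries labelled HET and 7 labelled WT, 13 of the 121 libraries of the series. One further library labelled WT, from mouse M4575 (M and the number on the labels name each mouse), was left out because the same mouse is labelled HOM in its striatum and substantia nigra. Each library came from the prefrontal cortex of 1 mouse. The WT mice were wt/wt, the HET mice wt/cKU and the 4 HOM mice cKU/cKU, where cKU is the name the labels give to the conditional GDNF allele. All were 2-month-old males of the strain named GDNF cKU x Nestin-Cre, on a mixed 129Ola/ICR/C57bl6 background, untreated, and the cortex was dissected from slices of 2 mm. The labels call the wild-type controls littermates but do not assign mice to litters. The HOM libraries were fitted together with WT and HET and are given beside them.

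The study asked whether raising endogenous GDNF suffices to bring about excess dopamine in the striatum and further brain changes linked to schizophrenia. It sequenced the prefrontal cortex, striatum and substantia nigra in 2 models. In the second model, mice with the same allele received AAV-Cre in the striatum on both sides at 3 to 5 months of age and were 5 to 7 months old at collection. Those mice contributed 7 WT, 7 HET and 8 HOM cortex libraries, which share no sample with the Nestin-Cre mice. Nestin-Cre striatum contributed 6 WT, 7 HET and 5 HOM libraries once mouse M4575 was set aside.

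GDNF is a secreted growth factor that binds the co-receptor GFRα1 and signals through the receptor tyrosine kinase RET, and it is best known for its action on midbrain dopamine neurons and their striatal projections. In the conditional allele, Cre exchanges the native end of the transcript for a shorter one that lacks elements holding GDNF expression down, so that the cells that normally make GDNF make more of it. Nestin-Cre is active in neural progenitors, and the allele is therefore recombined in neurons, astrocytes and oligodendrocytes alike from before birth. The prefrontal cortex receives dopamine fibres from the midbrain, and its tissue block borders on striatum, white matter and the olfactory peduncle.

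Library depth ran from 15161021 to 25882810 counts in WT, from 15244914 to 26750905 counts in HET and from 11204112 to 15842364 counts in HOM. The 10 most abundant genes held at most 3.10% of the counts in any of these libraries. Levels are in cpm, counts relative to library size, with sizes scaled by the trimmed mean of M values, and the lowest, median and highest library of each group are given. Adjusted p values come from edgeR's quasi-likelihood test, two-sided, unless another test is named. They were adjusted by the Benjamini-Hochberg method over all genes of the fit, 14361 for the cortex with all 17 libraries, and a gene was called where its adjusted p was under 0.1. In counts of called genes, edgeR without another word stands for that quasi-likelihood test. Counts by its likelihood ratio test are given under that name. Over all genes, the likelihood ratio test called 539 of 14361 and DESeq2 327 of 15012, the background for their counts in gene lists. Standard errors (SE) belong to log2 fold changes, with HET over WT unless stated, n = 6 and 7.

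The label prefrontal cortex was checked against markers. Slc17a7, the vesicular glutamate transporter of cortical excitatory neurons, stood at 1524 to 1728 cpm in WT and at 1434 to 1775 cpm in HET. Tbr1, a transcription factor of deep-layer neurons, stood at 124 to 156 cpm in WT and 124 to 139 cpm in HET. Fezf2, which specifies neurons projecting below the cortex, was at 22.1 to 35.3 cpm in WT and 22.8 to 33.4 cpm in HET. These 3 cortical markers were present in every library, as the label asks.

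Markers of neighbouring tissue were present too, at lower levels. Rgs9, a striatal regulator of G-protein signalling, ranged from 39.0 to 89.0 cpm in WT and from 24.9 to 63.0 cpm in HET, and the dopamine receptor gene Drd2 from 5.97 to 19.3 cpm in WT, with a HET median of 3.56 cpm. Eomes, a marker of mitral and tufted cells of the olfactory bulb, ranged from 0.347 to 16.6 cpm in WT and from 3.18 to 21.5 cpm in HET. Ttr, the transthyretin gene of the choroid plexus, ranged from 0.116 to 41.9 cpm in WT and from 1.38 to 38.8 cpm in HET, while the choroid marker Folr1 was at 0 in 4 libraries. Among thalamic markers Gbx2 was at 0 in 7 libraries, all 6 HET among them, whereas Prkcd stood at 9.68 to 17.3 cpm in WT and 8.75 to 13.8 cpm in HET. Both Folr1 and Gbx2 fell short of the filter for testing.

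Gdnf itself was hardly detected in this cortex. The 7 WT libraries held 3 to 16 Gdnf counts each (median 11, total 67), the 6 HET libraries 2 to 18 (median 6, total 46) and the 4 HOM libraries 1 to 9 (median 2, total 14). It reached at most 0.892 cpm in any of the 17 libraries, short of the filter, and was left out of the main test. The groups overlapped, and no rise of the transcript can be read from so few counts. In the striatum of the same cross, where Gdnf was well above the filter, its mean level was 5.82 cpm in 6 WT libraries (SD 1.23), 6.12 cpm in 7 HET libraries (SD 1.78) and 6.94 cpm in 5 HOM libraries (SD 1.59). By qPCR, the study reported that striatal Gdnf mRNA rose with the number of conditional alleles in this cross, and the protein too. Read counts over the gene are another measure. The recombined transcript has a shorter end, and what that does to the counts was not tested.

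The HET cortex had lower RNA of myelin genes and of genes typical of striatal projection neurons, together with changes in many genes of neither group. Among the latter was a rise of Myl12a, which encodes a regulatory light chain of non-muscle myosin. Of 14361 genes tested, 91 were called (0.634%), 36 higher (0.251%) and 55 lower (0.383%). An unadjusted p under 0.05 was reached by 1742 genes (12.1%). The median log2 fold change was 0.49 over the called higher genes and -0.54 over the called lower genes, and 17 of the 91 changed by 1 or more on the log2 scale. Over all genes tested the median was 0.00, with 51.3% above 0.

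In 90 of the 91 called genes every HET library lay on 1 side of the WT mean, the exception being Gm8801, a pseudogene described further on. In 39 of them the HET and WT libraries did not overlap at all, and without regard to calls the 2 groups were apart for 84 genes (0.585%), 41 higher (0.285%) and 43 lower (0.299%). The choice of genes by a small p fixes much of that separation. Of the 55 lower genes, 22 belonged to the lists of striatal projection neurons or of myelin and mature oligodendrocytes. Of all 91, 62 were in none of the 34 gene lists examined. Apart from 7 genes named at the end, each call was lost when at least 1 of the 17 libraries was left out. With M4575 kept among the WT libraries, edgeR called 0 genes, with 1398 at an unadjusted p under 0.05.

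**Figure D1:**
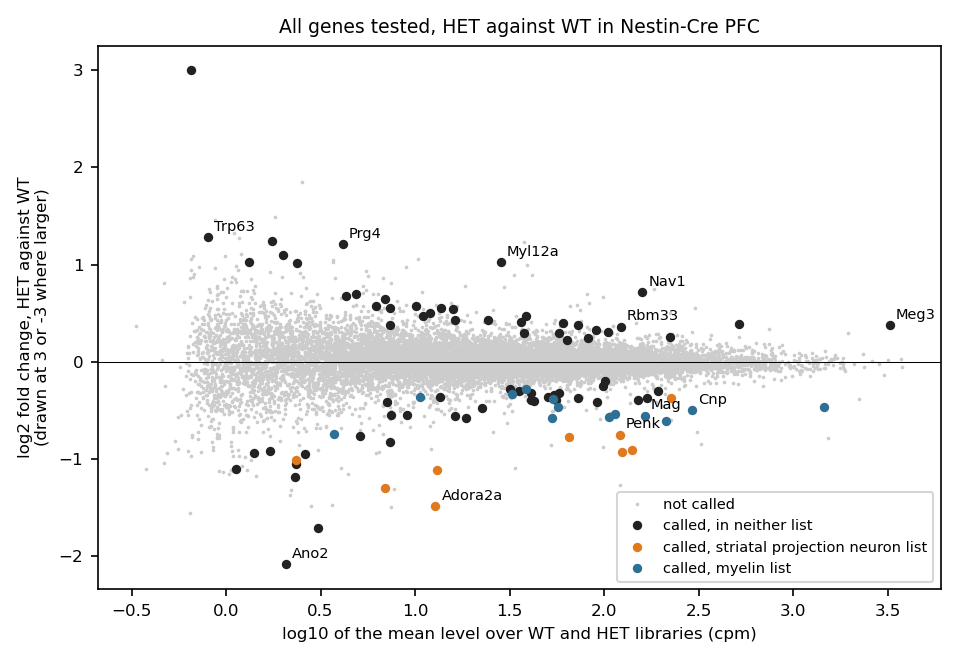
Mean level (log10 cpm, horizontal) against log2 fold change of HET over WT (vertical) for the 14361 genes tested, each point 1 gene, with the 91 called genes coloured by the list they belong to. Called members of the myelin and striatal lists all lie below 0.

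Myelin genes were lower in HET cortex as a group. All 30 tested members of the list of myelin and mature oligodendrocytes had a lower fitted level in HET, 28 of them with an unadjusted p under 0.05, and 13 were called (43.3% of the list, against 0.634% of all genes). DESeq2 called 23 of the 30 and the likelihood ratio test 23. The median log2 fold change of the list was -0.42. Myelin is the lipid-rich sheath that oligodendrocytes wrap around axons, and the list holds its structural proteins, its lipid enzymes and the regulators of the cells that make it. In bulk tissue, fewer oligodendrocytes and less RNA per oligodendrocyte cannot be told apart.

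Among the structural proteins, Cnp, which encodes the enzyme of the cytoplasmic channels of myelin, ranged from 288 to 407 cpm in WT (median 319) and from 217 to 253 cpm in HET (median 239). The 2 groups did not overlap. Cnp fell by 0.50 on the log2 scale (SE 0.09, adjusted p = 0.0357). Mag, the myelin-associated glycoprotein facing the axon, ranged from 166 to 242 cpm in WT (median 185) and from 108 to 143 cpm in HET (median 133), again without overlap. Mag fell by 0.56 (SE 0.10, adjusted p = 0.049), and its adjusted p was 0.115 without HET mouse M4564. Cldn11, the claudin of the tight junctions between myelin layers, was apart as well, at 107 to 162 cpm in WT (median 117) and 76.2 to 93.9 cpm in HET (median 84.2), with a log2 fold change of -0.57 (adjusted p = 0.0495).

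Mog, the oligodendrocyte glycoprotein of the outermost lamella, stood at 46.1 to 83.5 cpm in WT (median 63.8) and at 36.2 to 45.7 cpm in HET (median 43.6). The highest HET library came just below the lowest WT library, and Mog fell by 0.58 (SE 0.14, adjusted p = 0.0814). Mal, a lipid-raft protein of compact myelin, ranged from 192 to 320 cpm in WT and from 144 to 204 cpm in HET, where the groups overlapped, and fell by 0.61 (adjusted p = 0.049). Mbp, the basic protein that compacts the sheath, was at 2082 to 3263 cpm in WT (median 2436) and 1681 to 2108 cpm in HET (median 1952). Its log2 fold change of -0.39 (SE 0.10) did not pass, with an adjusted p of 0.133.

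Per kilobase of exon, the WT means put Mbp (372 cpm per kb) above Cnp (125), Mal (90.9), Mag (73.4) and Cldn11 (66.9). Their log2 fold changes lay between -0.61 and -0.39, whatever their level. Enzymes of myelin lipids were lower too: Ugt8a, which makes galactosylceramide, fell by 0.47 (adjusted p = 0.0694), and Fa2h, which hydroxylates its fatty acids, fell by 0.34 (adjusted p = 0.0694). Gjb1, a gap-junction protein of oligodendrocytes, fell by 0.36 (adjusted p = 0.0874) and Tspan2, a tetraspanin, by 0.54 (adjusted p = 0.0845); also called were Ppp1r14a (log2 fold change -0.74, adjusted p = 0.0694), an inhibitor of myosin phosphatase, and Plekhh1 (-0.29, adjusted p = 0.0874).

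Myrf, the membrane-anchored transcription factor that oligodendrocytes need to switch on myelin genes, was also lower. It ranged from 54.5 to 68.9 cpm in WT (median 58.0) and from 42.1 to 50.8 cpm in HET (median 45.0), with no overlap. Myrf fell by 0.38 (SE 0.07, adjusted p = 0.0357). In all, 7 of the 30 myelin genes had HET and WT libraries apart, all 7 lower: Mog, Gjb1, Cnp, Fa2h, Cldn11, Mag and Myrf. Over all genes tested, 0.299% were apart and lower. The list of oligodendrocyte precursors and differentiating oligodendrocytes had 9 of 14 members lower, a median of -0.10 and 0 called by edgeR's quasi-likelihood test. Among those 14, 5 reached an unadjusted p under 0.05, DESeq2 called 2 and the likelihood ratio test 3. Gpr17, the receptor that marks premyelinating cells, had a log2 fold change of 0.18 (adjusted p = 0.417), Olig1, a lineage factor, -0.30 (adjusted p = 0.379), and Bcas1, a protein of early myelinating cells, -0.42 (adjusted p = 0.114).

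The summed level of the 30 myelin genes ranged from 5564 to 8237 cpm in WT (median 6256), from 4373 to 5133 cpm in HET (median 4983) and from 3629 to 5962 cpm in HOM (median 4657). The highest HET sum lay below the lowest WT sum. Mbp was the most abundant member, with a mean of 2497 cpm in WT and 1912 cpm in HET. Summed levels of precursor genes overlapped, at 607 to 737 cpm in WT and 580 to 682 cpm in HET.

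How many myelin genes were called moved with single libraries, though the list's median stayed between -0.44 and -0.36 whichever of the 17 cortex libraries was left out. Without HET mouse M4564, 2 of the 30 were called, without M4566 5, without M4577 3, without M4579 4 and without M4606 8. Among WT mice, leaving out M4326 gave 7 called, M4394 3, M4396 6 and M4529 6. Counts also rose, to 17 without HOM mouse M4393, 18 without HOM mouse M4580 and 18 without WT mouse M4612. Of the myelin genes, Cnp and Myrf were called without any 1 of the 17 libraries.

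Promoters of the called myelin genes were read for the Myrf consensus, the heptamers CTGGCAC and CTGGTAC on either strand, in the 250 bases before the transcription start (RefSeq, build GRCm38, which is mm10). A promoter was available for 21 of the 30 myelin genes, and 4 of them (19.0%) held a match, 3 of these being among the 10 called myelin genes with a promoter. Over all tested genes with a promoter, 773 of 11383 (6.79%) held a match. In the striatal list 2 of 20 did, and over all called genes 5 of 67 (7.46%). The 3 called myelin genes with a match were Cnp, Mag and Mog, and their promoters are shown with the match in capitals so that its place can be read. The Cnp promoter lies at chr11:100574689-100574938 on the plus strand, that of Mag at chr7:30914923-30915172 on the minus strand and that of Mog at chr17:37023399-37023648 on the minus strand, where the match reads CTGGTAC on the opposite strand. Mag has further windows from other starts. The window at chr7:30914864-30915113 holds the same match and that at chr7:30914322-30914571 holds none. A match shows that the letters occur in the window and nothing about binding.
Cnp: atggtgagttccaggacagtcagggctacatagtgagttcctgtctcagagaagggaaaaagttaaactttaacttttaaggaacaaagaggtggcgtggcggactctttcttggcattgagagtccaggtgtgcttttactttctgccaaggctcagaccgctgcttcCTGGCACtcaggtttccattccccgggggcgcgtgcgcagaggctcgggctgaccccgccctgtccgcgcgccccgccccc
Mag: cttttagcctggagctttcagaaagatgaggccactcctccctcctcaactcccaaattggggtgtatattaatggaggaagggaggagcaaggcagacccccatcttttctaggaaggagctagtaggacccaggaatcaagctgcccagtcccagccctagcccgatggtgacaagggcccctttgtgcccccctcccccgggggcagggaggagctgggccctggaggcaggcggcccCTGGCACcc
Mog: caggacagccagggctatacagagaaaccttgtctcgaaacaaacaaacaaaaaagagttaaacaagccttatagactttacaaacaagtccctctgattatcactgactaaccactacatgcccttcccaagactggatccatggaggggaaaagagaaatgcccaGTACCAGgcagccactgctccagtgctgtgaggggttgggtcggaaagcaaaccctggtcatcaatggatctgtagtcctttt

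Genes of striatal projection neurons formed the second lower group. These are the GABA-releasing medium spiny neurons of the caudate putamen and accumbens, whose indirect pathway carries the Adora2a adenosine receptor and the Drd2 dopamine receptor and whose direct pathway carries the Drd1 dopamine receptor. All 27 tested members of the list had a lower fitted level in HET cortex, 24 with an unadjusted p under 0.05, and 9 were called (33.3%, beside 0.634% of all genes). The median log2 fold change was -0.63. HET and WT libraries were apart for 3 of the 27, all 3 lower, where 0.299% of all genes were apart and lower: Ppp1r1b, Scn4b and Pde1b.

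Adora2a, an adenosine receptor coupled to cyclic AMP, ranged from 10.3 to 29.7 cpm in WT (median 17.1) and from 2.18 to 11.1 cpm in HET (median 6.23). The highest HET library lay within the WT range. Adora2a fell by 1.49 (SE 0.31, adjusted p = 0.0564). That call was lost without any of 4 libraries: its adjusted p was 0.134 without HET mouse M4564, 0.112 without M4577, 0.119 without M4579 and 0.154 without WT mouse M4394. Gpr6, an orphan receptor of the same indirect-pathway neurons, fell by 1.01 (adjusted p = 0.0694).

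Ppp1r1b, which encodes the dopamine-regulated phosphatase inhibitor DARPP-32, ranged from 125 to 282 cpm in WT (median 166) and from 86.4 to 105 cpm in HET (median 94.6). No HET library reached the WT range. Ppp1r1b fell by 0.90 (SE 0.18, adjusted p = 0.049), with an adjusted p of 0.119 without HET mouse M4564 and 0.104 without M4577. Scn4b, a sodium-channel beta subunit, ranged from 107 to 278 cpm in WT (median 140) and from 70.0 to 94.7 cpm in HET (median 84.3), and fell by 0.93 (SE 0.21, adjusted p = 0.0694). Penk, the precursor of the enkephalins, ranged from 94.7 to 201 cpm in WT (median 153) and from 63.5 to 102 cpm in HET (median 91.9), and fell by 0.75 (SE 0.16, adjusted p = 0.0564). In Penk the highest HET library only just entered the WT range. Pde1b, a calmodulin-dependent phosphodiesterase, fell by 0.38 (adjusted p = 0.0845).

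Syndig1l ranged from 9.25 to 31.3 cpm in WT and from 3.53 to 11.2 cpm in HET, and fell by 1.12 (adjusted p = 0.0775). Lrrc10b stood at 5.10 to 16.8 cpm in WT and 1.84 to 6.06 cpm in HET, and fell by 1.30 (adjusted p = 0.0713). The dopamine receptors themselves did not pass edgeR's quasi-likelihood test with all libraries. Under 10 alternatives of test, scaling, filter and libraries, Drd2 was called in 2 and Drd1 in 1. Drd2 was also called in 2 of 17 fits that left out 1 library. Drd2 had medians of 9.87 cpm in WT and 3.56 cpm in HET, with a log2 fold change of -1.31 (adjusted p = 0.141). Drd1 ranged from 20.8 to 43.6 cpm in WT (median 30.7) and from 10.3 to 29.5 cpm in HET (median 19.6), with a log2 fold change of -0.73 (adjusted p = 0.175).

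Within each group the striatal genes varied widely between mice. Their summed level ran from 1434 to 2562 cpm in WT (median 1767), from 1117 to 1491 cpm in HET (median 1284) and from 1035 to 1659 cpm in HOM (median 1322). The mean of log2 levels over the list ran from 4.39 to 5.35 in WT (median 4.85) and from 3.72 to 4.63 in HET (median 4.27), so that the highest HET library lay above the lowest WT library. Pde1b was the most abundant member, with means of 253 cpm in WT and 195 cpm in HET. The defining striatal markers Adora2a, Drd2 and Rgs9 were present in every library. How much striatal tissue each block held was not measured, and its part in these differences was not tested.

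**Figure D2:**
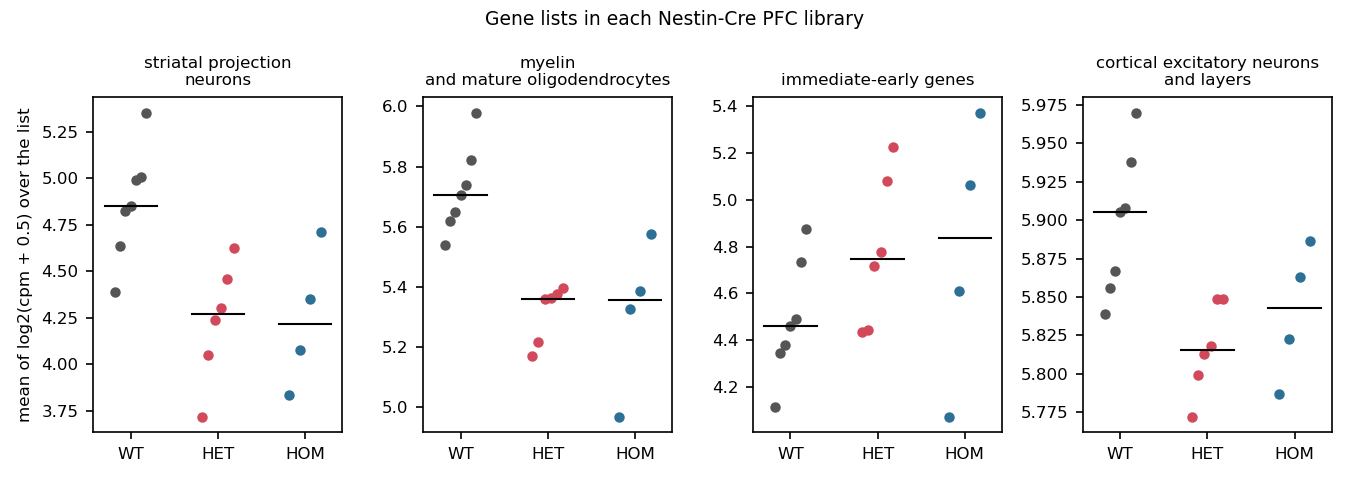
Mean log2 level (cpm plus 0.5) of 4 gene lists in each prefrontal cortex library, each point 1 mouse, by genotype, with the group median as a line. The myelin list sits lower in every HET library than in any WT library. The striatal list has a lower HET median with overlap. The immediate-early list has a higher and the cortical list a slightly lower HET median, both with overlap.

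The count of called striatal genes moved with single libraries as well. It was 0 of 27 by edgeR without HET mouse M4564 and 0 without M4577, 3 without M4566 and 1 without M4579. Leaving out WT mouse M4326 gave 5, M4394 1, M4396 2 and M4529 2. The highest counts were 12 without WT mouse M4329, 11 without WT mouse M4609 and 11 without HOM mouse M4580. The list's median stayed between -0.72 and -0.50 with each of the 17 libraries left out, and with all libraries DESeq2 called 14 of the 27 and the likelihood ratio test 24.

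The 2 lists were also fitted against each other and within a narrower range of mice. With the striatal list's mean level per library as a covariate, the striatal median became -0.01 (15 of 27 lower), as that adjustment forces, and the myelin median was -0.23, with 28 of 30 myelin genes still lower and 0 called by edgeR. In that fit 3 genes passed across the table, with 1182 at an unadjusted p under 0.05. With both list means as covariates both medians were 0.00, which that adjustment forces as well. Restricted to mice numbered 4500 and above, 3 WT and 6 HET, the striatal median was -0.58 with 26 of 27 lower, and the myelin median -0.31 with 30 of 30 lower. Neither list had a called gene among those mice (0 by edgeR, with 1173 genes of the whole table at an unadjusted p under 0.05). The other 4 WT mice were numbered below 4500 and no HET mouse was, and the labels do not say what the numbers stand for.

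Genes of dopamine handling, which GDNF is known to influence in midbrain neurons, did not pass edgeR's quasi-likelihood test in the cortex. The list of dopamine synthesis, transport, breakdown and receptors had 9 of 12 tested members lower, a median of -0.10 and 0 called by edgeR's quasi-likelihood test (3 with an unadjusted p under 0.05, 2 called by DESeq2, 3 by the likelihood ratio test). That median was -0.23 without HET mouse M4579. Of the GDNF family ligands and receptors, 7 of 12 were tested, 3 higher and 4 lower, with a median of -0.04, 0 called by edgeR or DESeq2 and 0 with an unadjusted p under 0.05. Gfra2, the neurturin co-receptor, had a log2 fold change of -0.13 (adjusted p = 0.546), and Ncam1, an alternative GDNF receptor, 0.04 (adjusted p = 0.754).

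Adenosine genes divided evenly. Of 12 adenosine receptors and handling genes, 6 were higher and 6 lower, the median was 0.00, and Adora2a was the single one called by edgeR's quasi-likelihood test, with 2 called by DESeq2. Adora1, the main adenosine receptor of cortical neurons, stood at 257 to 309 cpm in WT (median 274) and 231 to 259 cpm in HET (median 245). Its log2 fold change was -0.20 (adjusted p = 0.152). Among 18 neuropeptide genes, 12 were lower, the median was -0.14 (-0.06 without HET mouse M4579) and Penk was the single one called by edgeR, with 1 called by DESeq2 and 3 by the likelihood ratio test. Neurotrophins and their receptors had 6 of 8 members higher, a median of 0.10 and 0 called by edgeR or DESeq2, with 1 at an unadjusted p under 0.05.

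Myl12a and Nav1 were higher in HET cortex, and Myl12a had the smallest adjusted p of all genes tested. Myl12a lies at chr17:70993793-71002533 on the minus strand (mm10). It ranged from 17.4 to 20.6 cpm in WT (median 19.6) and from 30.2 to 45.6 cpm in HET (median 41.9), and from 18.9 to 39.4 cpm in HOM (median 24.8). The lowest HET library lay well above the highest WT library. Myl12a rose by 1.02 (SE 0.14, adjusted p = 0.00611) and was called without any 1 of the 17 libraries, with adjusted p between 0.000278 and 0.0286. Its call was lost among mice numbered 4500 and above (log2 fold change 1.04, adjusted p = 0.155), with M4575 kept in WT (0.84, adjusted p = 0.127), with the striatal list as covariate (0.93, adjusted p = 0.183) and with both lists (0.88, adjusted p = 0.456). Its neighbour Myl12b, the gene of the paralogous light chain, lies 3277 bases below Myl12a in chromosome coordinates and was looked at after the values were seen. Myl12b stood at 214 to 251 cpm in WT (median 222) and 193 to 211 cpm in HET (median 206), and its log2 fold change of -0.17 did not pass (adjusted p = 0.231).

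In the striatum, Myl12a ranged from 24.1 to 42.8 cpm in WT (median 28.3) and from 30.8 to 57.6 cpm in HET (median 49.6). In the substantia nigra the ranges were 28.5 to 65.8 cpm (median 43.4) and 39.9 to 67.8 cpm (median 64.3). Groups that were apart in the cortex therefore overlapped in the other 2 regions. In the cortex of AAV-Cre mice the HET log2 fold change of Myl12a was 0.07, and the difference between the 2 models, 0.95, passed its own interaction test (adjusted p = 0.0645).

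Nav1, a neuron navigator that binds growing microtubule ends in developing axons, lies at chr1:135434580-135585355. It ranged from 99.2 to 151 cpm in WT (median 122) and from 176 to 218 cpm in HET (median 200), without overlap. Nav1 rose by 0.71 (SE 0.12, adjusted p = 0.0357), and its highest adjusted p with 1 library left out was 0.0891. In the striatum Nav1 stood at 57.4 to 97.9 cpm in WT (median 68.7) and 74.2 to 146 cpm in HET (median 108), with overlap. In the substantia nigra it stood at 75.8 to 100 cpm in WT (median 86.2) and 102 to 225 cpm in HET (median 126), without overlap.

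Gm8801, a transcribed pseudogene at chr17:35947154-35953317, was called higher but was present or absent by mouse. In the cortex, HET mice M4564, M4566, M4577 and M4578 held 28 to 43 counts each, while HET mice M4579 and M4606 held 0. All WT libraries were at 0 apart from 1 count in mouse M4329, so the fitted fold change of Gm8801 is no bound and is not given. Among the 21 Nestin-Cre mice, 7 held at least 10 counts in each of their libraries and the other 14 held at most 1 count in each. By genotype the carriers were 0 of 8 WT, 4 of 7 HET and 2 of 5 HOM mice, and mouse M4575 with 21 to 37 counts. Gm8801 was singled out after its values were seen. It lies on the same chromosome as Myl12a, and of the 2 HET mice without it M4579 had 42.1 cpm of Myl12a and M4606 had 30.2 cpm.

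**Figure D3:**
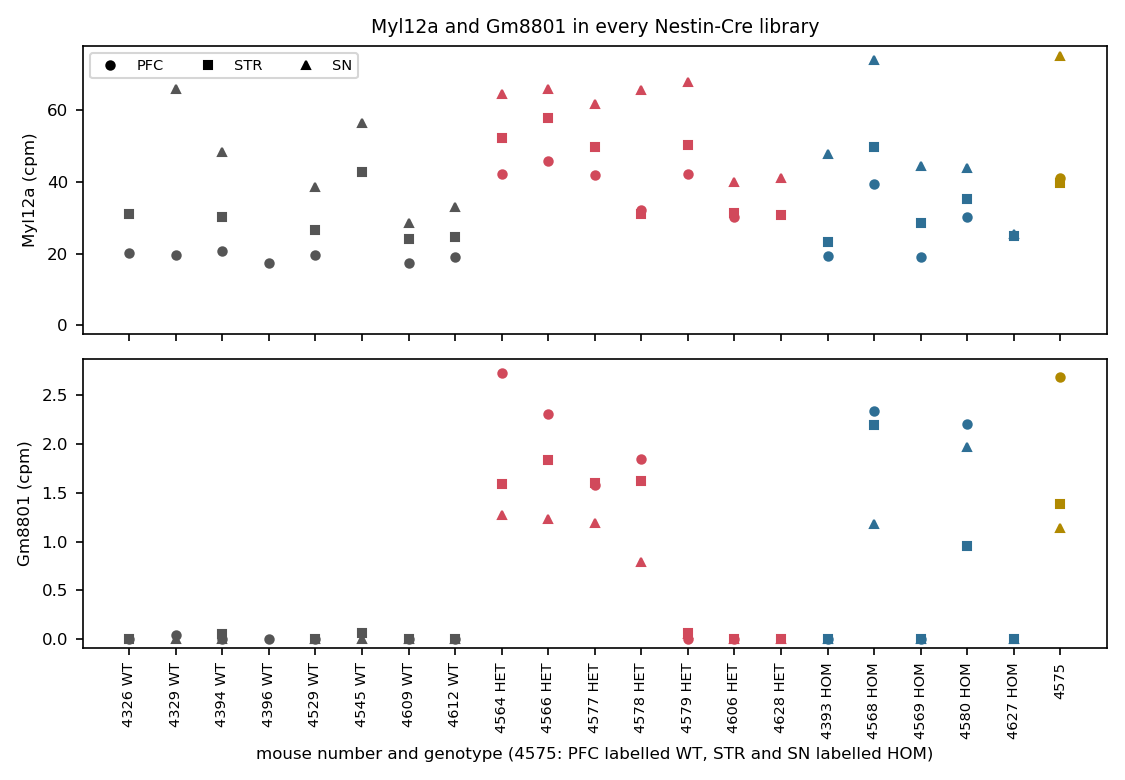
Level (cpm) of Myl12a and Gm8801 in each Nestin-Cre mouse in prefrontal cortex, striatum and substantia nigra, by genotype, with mouse M4575 drawn apart. Cortex Myl12a separates WT from HET, whereas Gm8801 is at or near 0 in all WT mice and divides the HET and HOM mice.

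Beside Myl12a and Nav1, the higher genes called without any 1 library were Rbm33 and 2410089E03Rik. Rbm33, an RNA-binding protein gene, ranged from 98.8 to 119 cpm in WT (median 106) and from 121 to 154 cpm in HET (median 138), and rose by 0.36 (SE 0.06, adjusted p = 0.0357). The groups were apart by a narrow gap. 2410089E03Rik, also named Cplane1 and needed for the assembly of primary cilia, ranged from 58.7 to 71.2 cpm in WT (median 62.8) and from 73.5 to 94.4 cpm in HET (median 83.1). It rose by 0.38 (SE 0.07, adjusted p = 0.0357). It also lies near Gdnf: of 46 tested genes on chromosome 15 within 10000000 bases of Gdnf, 26 were higher and 20 lower, the median was 0.03 (-0.04 among mice numbered 4500 and above), and 2410089E03Rik was the single one called by edgeR, with 1 called by DESeq2. Ndst3, which modifies heparan sulphate chains, ranged from 49.1 to 53.5 cpm in WT (median 52.3) and from 57.6 to 71.7 cpm in HET (median 63.9), and rose by 0.29 (SE 0.05, adjusted p = 0.0452). Without HET mouse M4564 the adjusted p of Ndst3 was 0.115.

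Among the largest rises were several genes of low level. Trp63, a transcription factor of the p53 family, ranged from 0.335 to 0.665 cpm in WT and from 0.728 to 2.11 cpm in HET, and rose by 1.28 (SE 0.28, adjusted p = 0.0694). 6030443J06Rik ranged from 0.703 to 1.43 cpm in WT and from 1.78 to 3.29 cpm in HET, and rose by 1.25 (SE 0.24, adjusted p = 0.049). Its adjusted p was 0.112 without HET mouse M4579 and 0.108 without WT mouse M4394. Both genes were apart between the groups. Prg4, which encodes the lubricating proteoglycan lubricin, had medians of 2.34 cpm in WT and 4.99 cpm in HET and rose by 1.21 (SE 0.25, adjusted p = 0.0564). Car13, a cytosolic carbonic anhydrase, had medians of 1.34 and 2.26 cpm and rose by 1.09 (SE 0.26, adjusted p = 0.0874), a call kept in 6 of 17 fits that left out 1 library.

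Slc2a4, the insulin-responsive glucose transporter, ranged from 0.328 to 1.56 cpm in WT and from 1.53 to 2.57 cpm in HET, and rose by 1.03 (adjusted p = 0.0972). Gm20219 rose by 1.02 (adjusted p = 0.0874), Il18bp, a secreted antagonist of interleukin-18, by 0.70 (adjusted p = 0.0694) and Itga10, a collagen-binding integrin subunit, by 0.67 (adjusted p = 0.099). Arnt, the partner of the hypoxia and aryl hydrocarbon receptors, ranged from 27.5 to 38.1 cpm in WT and from 34.9 to 53.5 cpm in HET. Arnt rose by 0.47 (adjusted p = 0.0694).

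Called higher as well were 3 single long non-coding RNAs, chosen after their values were seen. No list of such RNAs was examined, and their class as a whole was not tested. Meg3, a maternally expressed RNA of neurons, ranged from 2348 to 3358 cpm in WT (median 2805) and from 3133 to 4125 cpm in HET (median 3741), with a HOM mean of 4132 cpm. Meg3 rose by 0.38 (SE 0.09, adjusted p = 0.0972), its groups overlapped, and its call was kept in 5 of 17 fits that left out 1 library. Miat, a neuronal nuclear RNA, ranged from 392 to 508 cpm in WT (median 442) and from 532 to 613 cpm in HET (median 606), without overlap. Miat rose by 0.39 (SE 0.08, adjusted p = 0.049), with an adjusted p of 0.119 without HET mouse M4564 and 0.112 without M4577. Kcnq1ot1, the antisense RNA of an imprinted domain, ranged from 7.01 to 9.76 cpm in WT and from 9.46 to 14.8 cpm in HET, and rose by 0.57 (SE 0.12, adjusted p = 0.0694).

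Lower genes outside the myelin and striatal lists included several of low level. Ano2, a calcium-activated chloride channel, had the largest fall among the genes named here: it ranged from 1.14 to 7.64 cpm in WT (median 1.97), and its HET median was 0.637 cpm and its highest HET library 1.65 cpm. Ano2 fell by 2.09 (SE 0.46, adjusted p = 0.0694). Ptprv, a receptor-type tyrosine phosphatase gene, had medians of 4.02 cpm in WT and 1.32 cpm in HET and fell by 1.71 (SE 0.35, adjusted p = 0.0546). Slc5a7, the choline transporter of cholinergic neurons, fell by 1.05 (adjusted p = 0.0823), and Nexn, an actin-binding protein gene, fell by 1.19 (adjusted p = 0.0782). A230009B12Rik fell by 1.10 (adjusted p = 0.0452). Cyp2j12, a cytochrome P450 gene, ranged from 2.73 to 4.22 cpm in WT (median 3.52) and from 1.27 to 2.48 cpm in HET (median 1.64). Its groups were apart, and Cyp2j12 fell by 0.95 (SE 0.17, adjusted p = 0.0357). In Nexn and A230009B12Rik, too, no HET library reached the WT range. With the striatal list's mean level as a covariate none of these 6 passed. The log2 fold change was then -0.53 for Ano2, -0.42 for Ptprv, -0.21 for Slc5a7, -0.47 for Nexn, -1.05 for A230009B12Rik and -0.92 for Cyp2j12. That covariate comes from the same libraries and has a lower median in HET than in WT. A gene that follows it shrinks by the adjustment itself, and no cause was tested.

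Immediate-early genes, which neurons switch on within minutes of activity, leaned upward, and whether any passed depended on the test. Of 36 tested, 29 had a higher fitted level in HET, and the median was 0.22. By edgeR's quasi-likelihood test or by DESeq2 0 were called, with 9 at an unadjusted p under 0.05. The likelihood ratio test called 13 of the 36, beside 539 of all 14361 genes. The median was 0.12 without HET mouse M4566, 0.14 without WT mouse M4529 and -0.08 with the striatal and myelin list means as covariates. Egr1, a zinc-finger factor of this class, ranged from 146 to 355 cpm in WT (median 236) and from 247 to 482 cpm in HET (median 361), with a log2 fold change of 0.55 (adjusted p = 0.335). Arc, a synaptic protein made on activity, ranged from 76.7 to 253 cpm in WT (median 114) and from 135 to 424 cpm in HET (median 193), with a log2 fold change of 0.75 (adjusted p = 0.45). For Btg2 it was 0.89 (adjusted p = 0.341). The groups overlapped in each, and the summed level of the list ran from 1259 to 2073 cpm in WT and from 1627 to 2723 cpm in HET.

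Genes of cortical neurons and their receptors had list medians close to 0. Of 22 genes of cortical excitatory neurons and layers, 8 were higher and 14 lower, the median was -0.05, and 0 were called by edgeR or DESeq2 (5 with an unadjusted p under 0.05, 3 called by the likelihood ratio test). The mean of log2 levels over this list ran from 5.84 to 5.97 in WT (median 5.91) and from 5.77 to 5.85 in HET (median 5.82), so that 1 WT library lay within the HET range. Slc17a7 had a log2 fold change of -0.03 (adjusted p = 0.832) and Tbr1 -0.11 (adjusted p = 0.415). Interneuron genes had 10 of 19 higher, a median of 0.04 (-0.10 with the striatal list as covariate) and 0 called by edgeR, with 4 at an unadjusted p under 0.05, 1 called by DESeq2 and 4 by the likelihood ratio test. Glutamate receptors (15 of 24 higher, median 0.04) and GABA-A receptors (8 of 13 higher, median 0.03) had 0 called by edgeR or DESeq2, with 5 and 3 at an unadjusted p under 0.05 and 1 and 0 called by the likelihood ratio test. Among mice numbered 4500 and above these 2 medians were -0.04 and -0.01. Serotonin receptors had 9 of 12 lower, a median of -0.06 (-0.18 among mice numbered 4500 and above) and 0 called by edgeR, with 2 at an unadjusted p under 0.05 and 1 called by DESeq2. The potassium channel list had 38 of 65 lower and a median of -0.02. Kcng4, a modifier subunit of voltage-gated channels, was its single member called by edgeR's quasi-likelihood test, with 3 called by DESeq2 and 3 by the likelihood ratio test. Kcng4 ranged from 7.74 to 10.2 cpm in WT (median 8.71) and from 4.85 to 8.60 cpm in HET (median 5.46), and fell by 0.55 (adjusted p = 0.0694).

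In the following lists of other cell types and of collagens, no gene was called by edgeR or DESeq2. The likelihood ratio test called a few in each, beside 539 of all 14361 genes. Astrocyte genes had 10 of 14 higher with a median of 0.07, and endothelial and mural genes 10 of 16 higher with a median of 0.09. Gja1, the main connexin of astrocytes, had a log2 fold change of 0.28 (adjusted p = 0.206). Microglial genes had 12 of 16 lower with a median of -0.09. In these 3 lists 0 were called by edgeR or DESeq2, with 2, 4 and 6 at an unadjusted p under 0.05, and the likelihood ratio test called 2, 2 and 1. Fibroblast and meningeal genes had 11 of 12 higher with a median of 0.23, 0 called by edgeR or DESeq2, 1 at an unadjusted p under 0.05 and 3 called by the likelihood ratio test. Among mice numbered 4500 and above their median was 0.03, with 5 of 12 lower. Their summed level ran from 142 to 322 cpm in WT and from 236 to 347 cpm in HET, and the most abundant, the growth factor Igf2, had a log2 fold change of 0.36 (adjusted p = 0.511). Collagens had 26 of 41 higher, a median of 0.06 and 0 called by edgeR or DESeq2, with 4 at an unadjusted p under 0.05 and 2 called by the likelihood ratio test.

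Lists for tissue at the edge of the block had no gene called by edgeR's quasi-likelihood test. Of the choroid plexus genes, 6 of 13 were tested, 4 higher and 2 lower, with a median of 0.18, 0 called by edgeR, 3 at an unadjusted p under 0.05, 1 called by DESeq2 and 1 by the likelihood ratio test. Clic6, a chloride channel protein of that epithelium, had a log2 fold change of -1.18 (adjusted p = 0.11), whereas that of Ttr was 0.27 (adjusted p = 0.938). The direction of Ttr rested on single libraries, at -1.62 without HET mouse M4606 and 2.80 without WT mouse M4394, and it was 3.15 among mice numbered 4500 and above. The choroid plexus median was -0.28 without HET mouse M4606 and -0.05 among mice numbered 4500 and above. Olfactory bulb and neuroblast genes had 7 of 11 higher, a median of 0.16, 0 called by edgeR or DESeq2 and 0 at an unadjusted p under 0.05, while the likelihood ratio test called 4. Their median was 0.00 without HET mouse M4579, 0.30 without WT mouse M4329 and -0.42 with the striatal list as covariate. Doc2g, a gene of mitral and tufted cells, ranged from 3.52 to 70.2 cpm in WT (median 16.3) and from 18.6 to 49.7 cpm in HET (median 39.2). Thalamic genes had 5 of 8 lower and a median of -0.13 (-0.07 among mice numbered 4500 and above and -0.06 without HET mouse M4564), with 0 called by edgeR, 1 at an unadjusted p under 0.05, 1 called by DESeq2 and 1 by the likelihood ratio test. Ramp3 among them had a log2 fold change of -0.50 (adjusted p = 0.123). The single blood gene tested had a log2 fold change of -0.27 and an unadjusted p above 0.05.

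Immune and stress genes had medians above 0 and none was called by edgeR's quasi-likelihood test. Interferon-response genes had 15 of 16 higher with a median of 0.23, and their summed level ran from 112 to 145 cpm in WT (median 127) and from 131 to 170 cpm in HET (median 148). By edgeR 0 were called, with 5 at an unadjusted p under 0.05, 1 called by DESeq2 and 3 by the likelihood ratio test. Ifi27, an interferon-induced mitochondrial protein gene, had a log2 fold change of 0.20 (adjusted p = 0.255). MHC and complement genes had 8 of 10 higher and a median of 0.11, with 0 called by edgeR or DESeq2, 2 at an unadjusted p under 0.05 and 1 called by the likelihood ratio test. Heat shock and unfolded protein genes had 7 of 11 higher and a median of 0.02 (-0.06 among mice numbered 4500 and above), with 0 called by edgeR or DESeq2, 2 at an unadjusted p under 0.05 and 2 called by the likelihood ratio test.

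Glucocorticoid-response genes had 12 of 14 lower and a median of -0.21, with 0 called by edgeR, 7 at an unadjusted p under 0.05, 2 called by DESeq2 and 5 by the likelihood ratio test. Tsc22d3, a classical glucocorticoid target, had a log2 fold change of -0.46 (adjusted p = 0.217), and Sgk1, a kinase induced by the hormone, -0.40 (adjusted p = 0.29). Among mice numbered 4500 and above the list's median was -0.08 (-0.06 over all mice with the striatal list as covariate), with -0.12 for Tsc22d3 and -0.07 for Sgk1. Circadian clock genes had 10 of 16 lower and a median of -0.04, with 0 called by edgeR, 6 at an unadjusted p under 0.05, 2 called by DESeq2 and 6 by the likelihood ratio test. Labels give no hour of dissection, so its part in these 2 lists was not tested.

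Metabolic lists had small negative medians with most members lower. Nuclear-encoded respiratory chain genes had 73 of 80 lower and a median of -0.10, with 0 called by edgeR, 18 at an unadjusted p under 0.05 and 1 called by DESeq2. Atp5b, the catalytic beta subunit of ATP synthase, had a log2 fold change of -0.08 (adjusted p = 0.45). Cytosolic ribosomal proteins had 63 of 76 lower and a median of -0.06, which was 0.02 among mice numbered 4500 and above, with 0 called by edgeR or DESeq2, 7 at an unadjusted p under 0.05 and 2 called by the likelihood ratio test. Cholesterol synthesis genes had 20 of 22 lower and a median of -0.08. Insig1, which retains the sterol sensor in the endoplasmic reticulum, was the single one called by edgeR, with 1 called by DESeq2. Insig1 ranged from 42.0 to 63.0 cpm in WT (median 59.3) and from 38.0 to 51.1 cpm in HET (median 44.1), and fell by 0.37 (adjusted p = 0.0874). Hmgcs1, an early enzyme of the pathway, had a log2 fold change of -0.05 (adjusted p = 0.813).

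A list of 57 genes that the study tabulated for schizophrenia was chosen by its authors on these cortex libraries, with HOM mice compared with WT, so its direction is no independent evidence. In HET cortex 30 were higher and 27 lower, and the median was 0.11. By edgeR 12 of the 57 were called, beside 91 of all 14361 genes. DESeq2 called 20, beside 327 of all 15012, and the likelihood ratio test 36, beside 539 of all 14361. The median was 0.03 without HET mouse M4579 and 0.06 among mice numbered 4500 and above, and with 1 library left out 1 to 17 members were called. The 3 higher were Arnt, Il18bp and Ndst3, and the 9 lower included Adora2a, Ano2, Penk and the myelin or oligodendrocyte genes Cnp, Mag, Mog, Plekhh1 and Tspan2. Inf2, an actin-regulating formin that the study names for this tissue, ranged from 150 to 217 cpm in WT (median 182) and from 113 to 172 cpm in HET (median 153). Its log2 fold change of -0.30 did not pass (adjusted p = 0.237).

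HOM mice carry 2 copies of the allele and share their WT libraries with the HET comparison, so the 2 sets of values are given side by side and not as repeats of each other. Against WT, 37 genes were called in HOM (0.258%), 25 higher (0.174%) and 12 lower (0.0836%), with 1402 at an unadjusted p under 0.05 (9.76%). Median log2 fold changes over the 55 genes called lower in HET were -0.54 in HET and -0.42 in HOM, and over the 36 called higher 0.49 and 0.36. For 72 of the 91 genes the HOM mean lay between the WT and HET means. Since the 91 were chosen for their HET effect, smaller HOM values among them follow in part from the choice and are no sign of an order between the genotypes. The striatal list had a median of -0.63 in both genotypes, and the myelin list -0.42 in HET and -0.44 in HOM.

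Single genes differed in how HOM stood beside HET. Myl12a had a log2 fold change of 1.02 in HET and 0.50 in HOM, and Nav1 0.71 and 0.31. Myrf had -0.38 in HET and -0.39 in HOM, where it was also called (adjusted p = 0.0455), and Cnp -0.50 and -0.48 (HOM adjusted p = 0.0817). Gjb1 had -0.36 in HET and -0.69 in HOM (HOM adjusted p = 0.0239). Meg3 had 0.38 and 0.54 (HOM adjusted p = 0.0455). Adora2a had -1.49 in HET and -1.23 in HOM, with a HOM mean of 7.76 ± 3.83 cpm (SD, n = 4).

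Tested directly, HOM against HET gave 0 called genes by edgeR's quasi-likelihood test and 0 by DESeq2, with 908 genes at an unadjusted p under 0.05 (6.32%) and a smallest adjusted p of 0.777. By edgeR's likelihood ratio test 97 genes passed. The 2-copy genotype was not separated from the 1-copy genotype in these 4 and 6 libraries by the first 2 tests.

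In the striatum of the same cross, HET against WT gave 0 called genes of 14465 by edgeR, with 2511 at an unadjusted p under 0.05 (17.4%). Of the 91 cortex genes 90 had a value in these libraries, most of them from the same mice. Prg4, called higher in cortex, had none. The other 35 higher genes were all higher in HET striatum, with a median log2 fold change of 0.47. Of the 55 lower genes 47 were lower, with a median of -0.27. The genes were chosen on the cortex, and cortex and striatum residuals of the same mouse correlated (median 0.294). A shared direction follows in part from that, and its value without any HET effect was not measured. Whether the HET effect differed between cortex and striatum was tested as an interaction: 0 of 14865 genes passed by the quasi-likelihood test, with 886 at an unadjusted p under 0.05 (5.96%), and 383 by the likelihood ratio test. With the mouse as a blocking factor for the 15 mice with both regions, 2 genes passed, Pdyn (-0.78, adjusted p = 0.0658) and Dgkk (-1.94, adjusted p = 0.0658), both named after their values were seen.

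Several cortex genes had a like value in striatum. Nav1 had a HET log2 fold change of 0.71 in cortex and 0.63 in striatum, Rbm33 0.36 and 0.38, Miat 0.39 and 0.54, and Meg3 0.38 and 0.63. Myl12a had 1.02 and 0.53. The myelin list had a median of -0.42 in cortex and -0.13 in striatum, and Myrf -0.38 and 0.14. For the striatal list the medians were -0.63 in cortex and -0.41 in striatum, where these genes are native. Adora2a there ranged from 434 to 663 cpm in WT (median 525) and from 268 to 603 cpm in HET (median 340).

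In AAV-Cre mice the allele is recombined in the adult striatum. HET against WT gave no called gene in their cortex: 0 of 14628 by edgeR, with 1806 at an unadjusted p under 0.05 (12.3%). Their cortex offers libraries of other mice in which the 91 genes can be read. Of the 55 lower genes 33 were lower there, with a median of -0.02, and of the 36 higher genes 7 were higher, with a median of -0.12. The striatal list had a median of -0.02 and the myelin list -0.09 in those mice. Age and the route, place and time of recombination all differ between the models and cannot be told apart.

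The difference in HET effect between the 2 models passed the interaction test for 208 of 14748 genes (1.41%), 139 with a higher value in Nestin-Cre mice (0.943%) and 69 with a lower one (0.468%). An unadjusted p under 0.05 was reached by 2322. Among the 91 cortex genes it passed for 40, 25 of them called higher and 15 called lower in Nestin-Cre mice, but these were chosen on 1 of the 2 effects compared. Meg3 had a HET log2 fold change of 0.38 in Nestin-Cre and -0.28 in AAV-Cre cortex, a difference of 0.65 (adjusted p = 0.0255). Miat had 0.39 and -0.29. Adora2a had -1.49 and -0.02, and its difference did not pass (adjusted p = 0.141). Over the interferon list the medians were 0.23 in Nestin-Cre and -0.31 in AAV-Cre cortex, and over the fibroblast list 0.23 and -0.19.

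Called genes were spread over the genome. Chromosome 3 held 11 of its 692 tested genes (1.59%), chromosome 16 6 of 452 (1.33%), chromosome 17 9 of 702 (1.28%), chromosome 1 8 of 852 (0.939%) and chromosome 7 7 of 1090 (0.642%). On chromosome 15, which carries Gdnf, 4 of 571 were called (0.701%), beside 0.634% of all genes. The 9 on chromosome 17 included Myl12a, Gm8801, Gm20219 and Mog.

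Which of the 91 genes passed depended on single libraries. Without HET mouse M4564, 8 genes were called, without M4566 31, without M4577 19, without M4579 24 and without M4606 153. Among WT mice, leaving out M4326 gave 53 genes, M4329 158, M4394 14, M4396 38, M4529 33 and M4612 157. Without HOM mouse M4580, which enters through the shared dispersion, 168 were called. The 7 genes Myl12a, Nav1, Rbm33, 2410089E03Rik, Cnp, Myrf and Cyp2j12 were called without any 1 of the 17 libraries, while each other gene lost its call without at least 1. Among mice numbered 4500 and above edgeR called 0 of the 91, these 7 included, with 1173 genes of the table at an unadjusted p under 0.05. All 91 log2 fold changes kept their sign whichever library was left out.

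**Figure D4:**
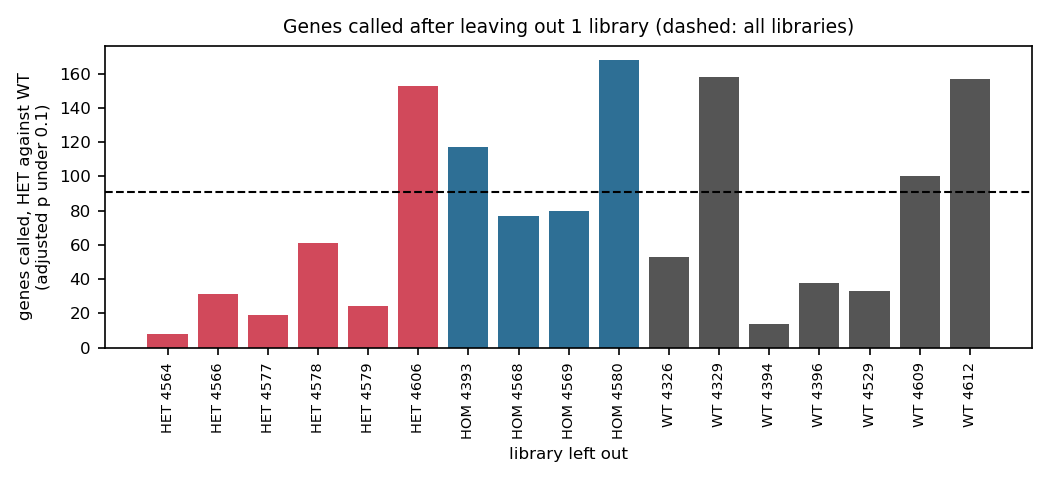
Number of genes called in HET against WT (vertical) when each of the 17 prefrontal cortex libraries is left out in turn, with the 91 genes called from all libraries as a dashed line. Leaving out HET mouse M4564 gives the lowest count, 8, and leaving out HOM mouse M4580 the highest, 168.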

How the data were processed

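The deposited table holds 1 read count per gene and library, which the authors made, by their processing notes, with bcl2fastq 2.20.0.422, STAR 2.5.2b on mm10 and featureCounts 1.5.1 from 75-base single-end reads of stranded poly(A) libraries. The count values were whole numbers and were used unscaled. Of 24412 genes, 14361 had at least 1 cpm in at least 3 of the 17 cortex libraries and were tested in R 4.3.3 with edgeR 4.0.16: scaling by the trimmed mean of M values, trended dispersions, and the quasi-likelihood test with WT, HET and HOM in 1 fit. DESeq2 1.42.0 served as a second tool. Interactions were tested in joint fits of 2 tissues or models. Means over lists used log2 of cpm plus 0.5. The procedure was tested on simulated data.

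Groups came from the labels, each library being 1 sample, and all 3 libraries of mouse M4575 were left out. That equal mouse numbers mean the same animal was checked once across regions: over 15 mice the median correlation of cortex and striatum residuals was 0.294 (0.139 to 0.490), against -0.011 between different mice.

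Named genes were those with the 10 largest rises and falls among called genes with every HET library on 1 side of the WT mean and a mean of at least 1 cpm, the 10 smallest adjusted p, the called and up to 4 most abundant members of each of 34 lists, Gdnf, and 6 genes the study names. Some of these genes are not reported here. Members and lists were chosen with earlier results of these data known. Alternatives were other tests, scalings, filters and thresholds, each library left out, mouse M4575 kept, mice by number, list means as covariates, and regions blocked by mouse.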

Additional observations from a re-analysis of the deposited data

Results flagged for a closer look

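A gap between the highest or lowest library and the rest of its group was examined in 327 groups of named genes and lists in the cortex, each by the size of the gap over the group's range, and 21 stood out where chance gives about 1 in 20 groups. Some follow 1 mouse. HOM mouse M4580 was lowest by such a gap for Fa2h (0.846), Tbr1 (0.878), Adora1 (0.941), Meg3 (0.916) and Miat (0.904). HET mouse M4578 was highest for Slc2a4 (0.744), Ano2 (0.721) and the adenosine list (0.626). HOM mouse M4393 was lowest for Itga10 (0.892) and the astrocyte list (0.966), and HET mouse M4606 highest for Kcng4 (0.696) and Ttr (0.684). WT mouse M4326 was lowest for Insig1 (0.6254) and highest for the respiratory chain list (0.591), and WT mouse M4394 highest for Ttr (0.589) and the choroid plexus list (0.628).

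Single gaps remained in other mice. WT mouse M4529 was lowest for Gm20219 (0.569), WT mouse M4329 highest for Gm8801 (1, from its 1 count), WT mouse M4612 highest for the blood list (0.634), HOM mouse M4568 highest for the collagens (0.931) and HET mouse M4564 highest for MHC and complement (0.700).

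The HET effect differed between Nestin-Cre and AAV-Cre cortex, by the interaction test, for 20 of the 74 named genes, against 208 of all 14748 tested (1.41%). Of the 74, 46 were named with a call in Nestin-Cre HET cortex, 1 of the 2 effects compared, so the share among them is no independent result. On the log2 scale, Nestin-Cre minus AAV-Cre, the difference was 1.48 for Trp63, 1.38 for Gm20219, 0.95 for Myl12a, 0.90 for Kcnq1ot1, 0.82 for Itga10, 0.81 for Il18bp, 0.72 for Nav1, 0.67 for Miat, 0.65 for Meg3, 0.58 for Arnt, 0.53 for 2410089E03Rik, 0.50 for Gja1, 0.45 for Rbm33 and 0.33 for Ndst3. Among myelin genes it was -0.66 for Mal, -0.66 for Cldn11, -0.55 for Ugt8a, -0.54 for Mag, -0.54 for Tspan2 and -0.45 for Cnp.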

How the results depend on the processing

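Against the 91 genes called, edgeR's likelihood ratio test called 539 (86 of the 91 among them), DESeq2 327 (all 91), the robust quasi-likelihood fit 80, DESeq2 size factors 94, no filter on low counts 84, WT and HET libraries alone 116, and an adjusted p under 0.05 20. With all 3 regions in 1 fit 1 gene passed, Myl12a (1.02, adjusted p = 0.0957). With mouse M4575 kept in WT, edgeR called 0, with 1398 at an unadjusted p under 0.05, and with its cortex counted as HOM 82. Among mice numbered 4500 and above 4 passed, none of them among the 91, and they included Hnrnpa3 (0.61), Gm15772 (1.05) and Tmem181c-ps (6.86). With the striatal list as covariate 3 passed, Rbm33 (0.45), Drc1 (0.65) and Gm15631 (-0.77), and with both lists 2, Miat (0.63) and 6430411K18Rik (1.21). These few were named after their values were seen. Single libraries left out gave 8 to 168 called. The cause of these changes was not tested.

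The 91 signs held under all alternatives except both covariates (85 held), though among mice numbered 4500 and above A230009B12Rik had no value and the other 90 held. Among the 46 of the 74 named genes that were called, the sign turned with both covariates for Lrrc10b (0.0331), Tspan2 (0.00928) and Mog (0.12). The other called genes that turned are not among the 74, and the cause was not tested. Several named genes without a call turned as well, among them Drd1 (0.12), Drd2 (0.09) and Arc (-0.09). For 74 named genes under 13 alternatives and 17 single libraries left out, 1623 values kept their side of the threshold. A further 542 lost the call, 51 gained it, and 3 values of called genes turned sign. Where a gene was called in neither fit its sign was not compared. Some of those signs turned, as for Ttr with single libraries left out. List medians kept within the spread of WT libraries in 966 cases and moved in 20.

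Blocking by mouse, the interaction of cortex and striatum called 2 genes in 15 mice (5 WT, 6 HET and 4 HOM) with 1013 at an unadjusted p under 0.05, against 0 without the block, and the likelihood ratio test 383. For HOM against HET it was 97, and for Nestin-Cre against AAV-Cre cortex 561 beside 208.

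Limits are few mice, a WT group that spans mouse numbers below and above 4500 while all HET mice lie above, a tissue block whose neighbouring tissue was not measured apart, and bulk RNA. Genes as scarce as Gdnf fell short of the filter on low counts and were left out of the main test.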

Other observations

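Tmem181c-ps, a pseudogene at chr17:6610103-6620925 chosen after its values were seen, differed between mice of the same genotype. WT mice M4529, M4609 and M4612 held 0.562, 0.737 and 0.193 cpm, and the other 4 WT mice 38.3 to 41.7 cpm. Of the HET mice, 4 held 36.4 to 43.2 cpm, M4564 held 83.5 and M4566 held 86.5 cpm. The 4 HOM mice held 39.7, 53.6, 89.8 and 99.4 cpm and mouse M4575 34.9 cpm. Its log2 fold change was 1.24 (adjusted p = 0.471) over all mice. The 3 WT mice near 0 were the WT mice numbered 4500 and above, so that among mice so numbered every HET library lay above every WT library, with a log2 fold change of 6.86 (adjusted p = 0.000103).

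Mouse M4575, labelled WT in cortex and HOM in its other 2 libraries, had 13888800 cortex counts. Of 48 genes called in HET, out of a set of candidates for naming wider than the 74 genes of the text, 36 lay outside the WT range on the HET side in this mouse, and 40 lay nearer to the HET mean than to the WT mean. It held 41.0 cpm of Myl12a, 192 of Nav1, 9.86 of Adora2a, 4.50 of Drd2, 238 of Cnp and 154 of Mag. Its summed levels were 1397 cpm for the striatal list and 4973 cpm for the myelin list.

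Fold changes differed a little with exon length. With genes divided into 5 equal classes, from the shortest to the longest, the median log2 fold change of HET over WT was -0.04, -0.01, 0.00, 0.01 and 0.05. Called higher genes numbered 4, 6, 3, 9 and 14 in these classes and called lower genes 8, 11, 19, 8 and 9. The median exon length was 4340.5 bases for called higher genes, 2877 bases for called lower genes and 3059 bases for all tested.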
